A study of Populus davidiana with 6 samples.

Results

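Leaf genes of Populus davidiana, an aspen, that were already well expressed in unstressed plants and stood higher still after drying are described here. The rule was applied to gene values, each the sum of FPKM (fragments per kilobase of transcript, scaled to the mapped fragments of the library) over the transcripts of a gene model. Eligible genes carried a POPTR identifier, at least 1 annotated transcript, a genomic span of 500 bp or more and a control mean of at least 20 FPKM. Members had, in addition, a lowest air-dried value at least 1.5 times the highest control value. This selected 106 genes, 1.74% of the 6087 eligible genes and part of the 40537 gene models in the series. The members were thus chosen by their FPKM in these same 6 libraries, so the levels and folds of the members are a description and carry no test. Members are numbered below by rank, from 1 for the largest ratio of lowest air-dried to highest control value to 106 for the smallest.

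The air-dried group held 3 leaf samples of the drought-sensitive cultivar Seogwang15, taken from plants of about 6 weeks that were lifted out of their medium, rinsed with water and left in air for about 10 min. The control group held 3 leaf samples of the same cultivar, and whether its plants were lifted and rinsed too is not stated in the labels. All plants were grown as sterile cultures from internodes on a medium with sucrose and an auxin. The labels speak of triplicate leaf samples without saying that these came from different plants, so the spread between them may be technical.

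When a leaf loses water, its cells lose turgor, and abscisic acid, the main hormone of the drought response, closes the stomata and switches on protective genes. Early transcripts in such responses commonly encode regulators, while transcripts abundant in unstressed leaf commonly serve photosynthesis, protein synthesis and basic metabolism. Which of these kinds the members belong to is not known here: the tables hold 0 gene names and no sequence, so the identifiers could not be paired with names, the lists of drought, hormone and photosynthesis genes could not be used, and leaf identity could not be checked on marker genes. Only 2 members are given by identifier and the others by position, in the coordinates of the deposited tables. In whole leaf, a change in the amount of RNA per cell and a change in the number of cells that express a gene cannot be told apart.

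Across the members, the median level was 104, 95.1 and 95.8 FPKM in air-dried libraries 1, 2 and 3, against 40.5, 41.5 and 40.6 FPKM in control libraries 1, 2 and 3. The other 5981 eligible genes had medians of 40.3, 39.8 and 39.8 FPKM in the air-dried libraries and 42.2, 38.7 and 39.4 FPKM in the controls. The median control mean of the members, 39.9 FPKM, was thus close to the 40.3 FPKM of the rest. The members lacked the highest control levels, however. Their highest control mean was 306 FPKM, while 165 eligible genes had 500 FPKM or more. The ratio of group means had a median of 2.11 over the members and ran from 1.59 to 11.9. It reached 2 in 65 members, 3 in 16 and 4 in 8. Air-dried means lay between 35.8 and 549 FPKM, and 50 members had an air-dried mean of 100 FPKM or more.

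**Figure D1:**
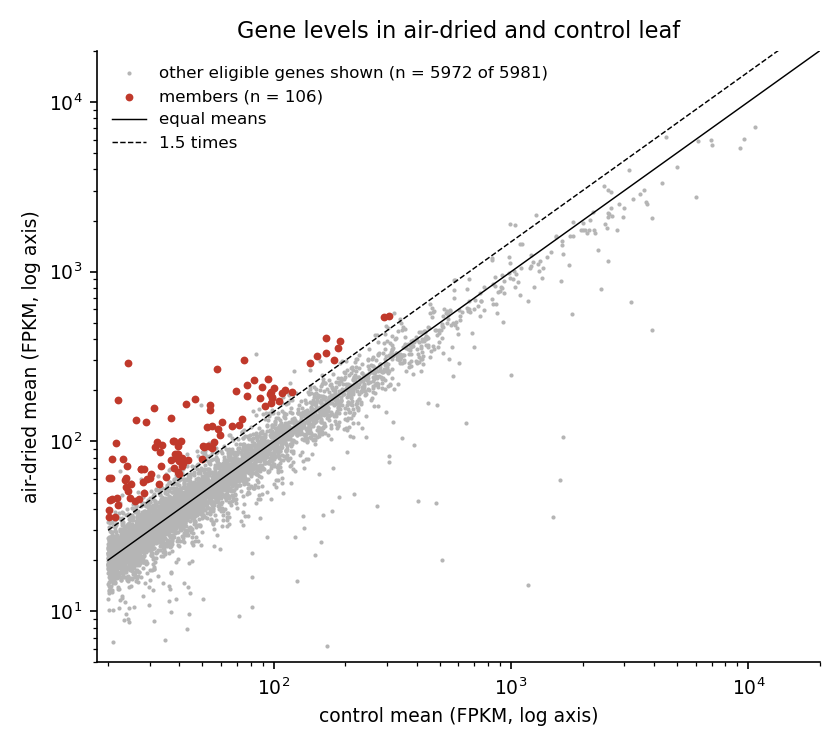
Air-dried mean against control mean in FPKM, both on log axes, for the 106 members and for 5972 of the 5981 other eligible genes (9 lie outside the axes); the solid line marks equal means and the dashed line a ratio of 1.5. The members lie above the dashed line at control means up to 306 FPKM, and the space above that line is empty of members at higher levels.

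The widest separation belonged to POPTR_0003s15040, rank 1, a gene with 1 annotated transcript on chromosome 3 (plus strand, 14941797 to 14943066). It had 287, 293 and 287 FPKM in the air-dried libraries, against 21.7, 24.6 and 26.4 FPKM in the controls. Its mean was 289 ± 3.44 FPKM after drying and 24.2 ± 2.37 FPKM in control leaf (SD, n = 3 each), 11.9 times as high. Among the 32745 annotated genes of 500 bp or more it stood at place 312 by air-dried mean and at place 5105 by control mean. All 3 air-dried values lay within a few percent of each other and far from every control value.

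POPTR_0010s15780.r1, rank 2, lies on chromosome 10 (plus strand, 14895739 to 14896369). It had 242, 140 and 143 FPKM in the air-dried libraries, against 17.8, 22.9 and 25.2 FPKM in the controls. Air-dried library 1 was well above the other two, and the rise sat in a very short annotated transcript, as described below. A gene model on the opposite strand overlaps it by 255 bp, with means of 24.9 FPKM after drying and 27.5 FPKM in control leaf. The labels name no strand-specific kit, so reads of the overlap could belong to either.

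The rank 3 gene, on chromosome 8 (plus strand, 7397337 to 7399229), had 130, 135 and 139 FPKM in the air-dried libraries and 25.4, 27.6 and 25.4 FPKM in the controls. The rank 4 gene, on chromosome 10 (plus strand, 3331846 to 3333965), had 140, 168 and 166 FPKM after drying and 35.8, 28.7 and 29.6 FPKM in control leaf. Both have a single annotated transcript and about 5 times the control mean (5.15 and 5.04). Rank 5, on chromosome 13 (minus strand, 1112945 to 1114097), had 291, 261 and 251 FPKM in air-dried leaf, against 64.0, 50.2 and 58.4 FPKM in control leaf. This gene, also of 1 transcript, moved to place 336 of the annotated genes by air-dried mean, against place 2099 by control mean.

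Rank 6 combined a high control level with close replicates. This gene of 2 annotated transcripts, on chromosome 4 (minus strand, 1194236 to 1197496), had 297, 312 and 303 FPKM after drying, against 76.5, 76.0 and 72.9 FPKM in control leaf, a ratio of means of 4.05. Rank 7, on chromosome 10 (minus strand, 1506349 to 1507528), had 113, 135 and 144 FPKM in the air-dried libraries and 25.7, 30.6 and 30.6 FPKM in the controls. In both genes the lowest air-dried value was over 3 times the highest control value (3.88 and 3.69).

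The remaining 3 of the 10 widest separations belonged to genes that span 880, 800 and 1628 bp. Rank 9, on chromosome 5 (plus strand, 11467753 to 11468632), had the tightest air-dried values of these, 138, 139 and 136 FPKM, against 40.4, 35.4 and 34.9 FPKM in the controls. Rank 10, on chromosome 19 (minus strand, 13016698 to 13017497), had 193, 151 and 158 FPKM after drying and 32.8, 46.8 and 48.6 FPKM in control leaf. Here the replicate 1 library was the highest of the air-dried values and the lowest of the control values. Rank 8, on chromosome 8 (minus strand, 837249 to 838876), had 112, 92.6 and 87.8 FPKM after drying, against 24.3, 20.2 and 20.6 FPKM in control leaf.

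**Figure D2:**
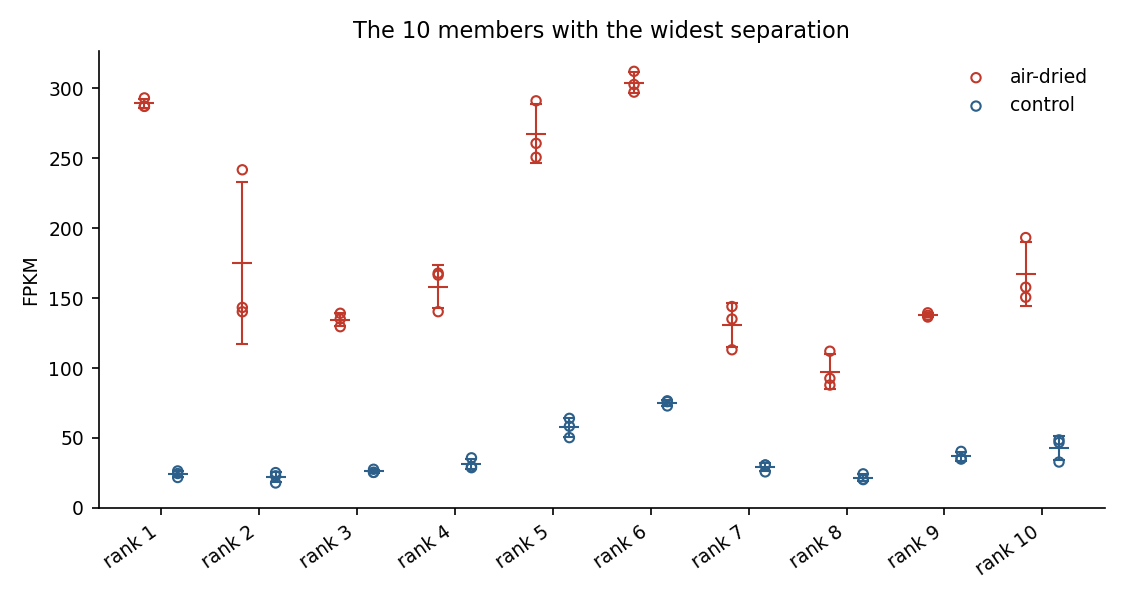
FPKM of the 10 members with the widest separation, ranks 1 to 10 from left to right; circles are the 3 libraries of a group, air-dried at the left and control at the right, with the mean (dash) and SD (bars). In each gene the air-dried values lie apart from the controls, which range from 17.8 to 76.5 FPKM, and rank 2 shows the widest air-dried spread.

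The members with the highest air-dried levels were different genes, except for rank 6, and their folds were smaller. The highest mean, 549 ± 68.2 FPKM after drying and 306 ± 26.2 FPKM in control leaf (SD, n = 3 each), belonged to rank 103, on chromosome 8 (minus strand, 14347588 to 14351211). Its libraries had 628, 513 and 507 FPKM after drying, against 336, 285 and 299 FPKM in control leaf. Rank 68, on chromosome 10 (minus strand, 16803885 to 16810911), had 616, 501 and 500 FPKM in the air-dried libraries and 299, 287 and 286 FPKM in the controls. In both genes replicate 1 gave the highest value of each group. Rank 68 is overlapped over its whole 7027 bp by a gene model on the other strand with means of 351 FPKM after drying and 315 FPKM in control leaf.

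Rank 29, on chromosome 2 (plus strand, 10482578 to 10484866), had 473, 365 and 381 FPKM in air-dried leaf, against 156, 177 and 163 FPKM in control leaf. Rank 40, on the same chromosome (minus strand, 19105129 to 19109688), had 370, 407 and 399 FPKM after drying and 178, 195 and 195 FPKM in the controls. On chromosome 10, rank 64 (plus strand, 17180050 to 17183372) had 337, 368 and 361 FPKM after drying, against 199, 185 and 176 FPKM in control leaf. Air-dried means in these 3 genes were 2.46, 2.07 and 1.90 times the control means.

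Rank 38, on chromosome 5 (plus strand, 14527425 to 14532017), had 333, 338 and 330 FPKM after drying and 170, 165 and 165 FPKM in control leaf. Rank 48, on chromosome 16 (plus strand, 7223952 to 7227272), had 297, 330 and 335 FPKM in the air-dried libraries, against 139, 161 and 155 FPKM in the controls. Each of these stood at about 2 times its control mean (2.01 and 2.11), and rank 38 did so with an SD of 3.91 FPKM after drying and 2.97 FPKM in control leaf. Rank 73, on chromosome 17 (plus strand, 14398241 to 14400850), had 297, 304 and 311 FPKM after drying, against 179, 177 and 182 FPKM in control leaf. Rank 87, on chromosome 19 (plus strand, 6509639 to 6511981), had 235, 322 and 319 FPKM in air-dried leaf and 129, 148 and 150 FPKM in control leaf, so that replicate 1 was the lowest in both groups.

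Genes on either side of the threshold had like values. The 5 members just inside had ratios of lowest air-dried to highest control value between 1.5 and 1.51, and the 5 eligible genes just outside had ratios from 1.48 to just under 1.5. Inside, rank 102 (chromosome 14, plus strand, 10124739 to 10130962) had 33.6, 36.6 and 37.7 FPKM after drying, against 20.5, 22.3 and 21.4 FPKM in control leaf. Rank 106 (chromosome 4, minus strand, 19668187 to 19670260) had 116, 148 and 114 FPKM after drying, against 75.7, 67.1 and 71.3 FPKM in control leaf. The others inside are ranks 103, 104 (chromosome 10, plus strand, 19438475 to 19441158) and 105 (chromosome 17, minus strand, 7592789 to 7595712), with ratios of means of 1.79, 1.81 and 1.84. Rank 104 is overlapped over its whole 2684 bp by a gene model on the other strand with means of 451 FPKM after drying and 496 FPKM in control leaf.

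Outside, a gene on chromosome 6 (minus strand, 17265443 to 17269069) had 64.3, 71.2 and 71.4 FPKM after drying, against 39.8, 41.0 and 43.0 FPKM in control leaf. Single-transcript values of 68.1, 74.3 and 73.6 FPKM after drying and 45.5, 42.6 and 41.2 FPKM in control leaf were those of a gene on chromosome 4 (minus strand, 23096242 to 23098124). The other 3 lie on chromosome 7 (3278372 to 3281636), chromosome 19 (12381200 to 12385977) and chromosome 12 (10783431 to 10787515), with air-dried means of 61.3, 33.6 and 43.6 FPKM and control means of 38.7, 20.7 and 22.4 FPKM. Their ratios of means, 1.58 to 1.95 over the 5 genes, overlap those of the members.

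The spread between libraries of a group was small in most members. The coefficient of variation had a median of 6.57% after drying and 6.73% in control leaf, compared with 6.36% and 7.55% in the other eligible genes. The rule sets the lowest air-dried against the highest control value and so disfavours genes of wide spread. The spread of the members is therefore not independent of the rule. Summed over the 106 genes, the level was 14840, 14142 and 14207 FPKM in the air-dried libraries and 6425, 6366 and 6404 FPKM in the controls. The replicate 1 libraries stood somewhat apart in both groups. In the members, air-dried 1 lay a median of 0.02 below air-dried 2 and 3 on the log2(FPKM + 1) scale (-0.02), and control 1 lay 0.02 above controls 2 and 3. The size of these differences, regardless of sign, had a median of 0.15 for air-dried 1 and 0.14 for control 1, against 0.05 between air-dried 2 and 3 and 0.06 between controls 2 and 3. The other eligible genes had 0.13, 0.16, 0.05 and 0.07 for the same 4 comparisons. Without both replicate 1 libraries, 167 genes met the rule, among them 103 of the 106 members. Leaving out libraries cannot lower a member's ratio, so only the control mean could remove a member here.

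Single libraries nevertheless shaped a few values. In 5 members air-dried 1 exceeded both other air-dried libraries by more than 1.5 times, namely ranks 2, 24, 47, 66 and 101. Rank 24, on chromosome 3 (minus strand, 6271073 to 6276826), had 236, 126 and 131 FPKM after drying, against 53.0, 58.3 and 49.4 FPKM in control leaf. Among the controls the highest value exceeded the lowest by more than 1.5 times in 7 members. The widest such range was that of rank 33, on chromosome 17 (plus strand, 10760686 to 10761289), with 87.0, 61.4 and 67.3 FPKM after drying, against 30.4, 28.7 and 13.2 FPKM in control leaf.

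**Figure D3:**
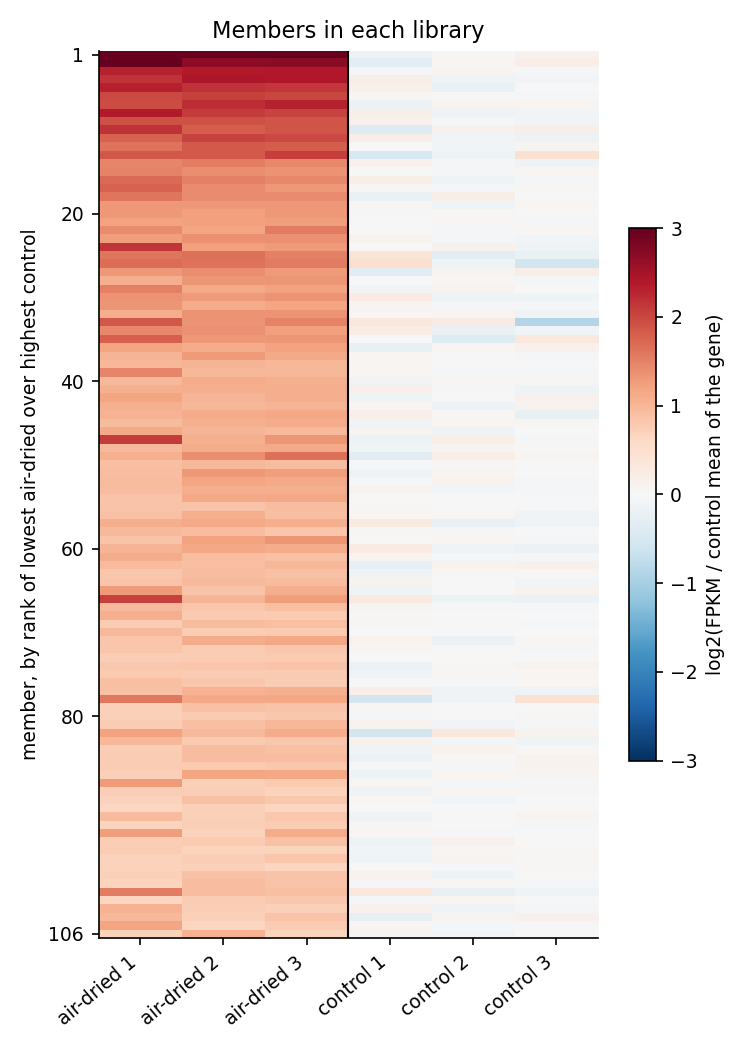
Heat map of log2(FPKM / control mean of the gene) for the 106 members (rows, by rank) in the 3 air-dried libraries (left) and the 3 control libraries (right); the colour scale ends at 3, which 4 values exceed. Air-dried values lie between 0.65 and 3.60 and control values between -0.87 and 0.48, with single darker cells in the air-dried 1 column.

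A test across the 22818 genes that averaged 1 FPKM or more over the libraries, by limma on log2(FPKM + 1) with Benjamini-Hochberg adjustment, called 1231 genes higher after drying at an adjusted p under 0.05, which is 5.39% of those tested. Among the 106 members, all of which were tested, 105 were called. The rule uses the same contrast, so nothing can be read from this count. The exception was rank 33, whose control 3 value lay far below the other controls. The median log2 change was 1.06 over the members and 0.03 over all tested genes. Of the 106, 69 were called in each of the 6 fits that leave out 1 library. The number of members called fell most without air-dried 3, to 72, and without air-dried 2, to 75. Over the whole table the genes called in either direction fell from 1829 to 474 and 476 in the same fits. Those fits use the contrast of the rule too, so their counts are no check on the members.

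How a gene's FPKM divides over its transcripts is not part of the rule. Of the 106 members, 42 have a single transcript, so that their rise is that of an annotated transcript. The other 64 have 2 to 8 transcripts. In 35 of these the transcript that led in the controls was itself at least 1.5 times higher in every air-dried library than in any control. In the remaining 29 it was not. The leading transcript differed between the groups in 15 of the 64 members (23.4%), compared with 614 of 5033 other eligible genes of 2 or more transcripts (12.2%). A selection for a higher sum favours genes in which a further transcript appears, so these shares are not independent of the rule.

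In 23 of the 64 members the transcript with the largest gain was not the one that led in the controls. These gaining transcripts had a median air-dried mean of 79.4 FPKM and a median control mean of 3.54 FPKM. In 8 of the 23 the gaining transcript had at most 1 FPKM in every control. Others varied widely within a group. That of rank 68 had 0.667, 2.52 and 77.1 FPKM in controls 1, 2 and 3. That of rank 77 had 10.9, 64.6 and 98.0 FPKM in air-dried 1, 2 and 3, against 21.0 FPKM in control 1 and under 0.1 FPKM in the other controls. The leading transcripts of the same genes had medians of 47.8 FPKM after drying and 34.5 FPKM in control leaf. Both kinds were picked by these same means, so the lower control level and larger gain of the gaining transcripts follow from the choice. The gaining transcript was assembled from the reads in 15 of the 23 and annotated in 8. Its genomic span was shorter than that of the leading transcript in 19, with a median of 1325 bp against 2432 bp. FPKM divides by transcript length, so the same number of fragments gives a higher value in a shorter transcript, and a sum over transcripts can rise where reads are assigned to a shorter one. The tables give no transcript lengths or read counts, and how far this contributes was not tested.

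Rank 29 shows such a gene. Its annotated transcript had 104, 92.9 and 78.7 FPKM after drying, against 121, 99.7 and 99.6 FPKM in control leaf. An assembled transcript that spans only the first 863 bp of the gene, from 10482578 to 10483440, had 305, 215 and 242 FPKM after drying and was listed at under 0.001 FPKM in every control. The annotated transcript therefore changed little, with overlapping values, while the short one appeared in all 3 air-dried libraries.

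In rank 2 the annotated transcript, 249 bp from 14895960 to 14896208, had 222, 124 and 132 FPKM after drying and under 0.001 FPKM in every control. The assembled transcript of the same gene, which spans 631 bp, had 19.5, 16.1 and 11.1 FPKM after drying, against 17.8, 22.9 and 25.2 FPKM in control leaf. Rank 8 had an assembled transcript of 521 bp with 71.1, 65.1 and 63.3 FPKM in air-dried leaf and under 0.001 FPKM in the controls, beside an annotated one with 40.9, 27.5 and 24.5 FPKM after drying and 24.3, 20.2 and 20.6 FPKM in control leaf. In both genes the longer transcript had overlapping or nearly touching ranges in the groups.

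Rank 65, on chromosome 16 (plus strand, 8266057 to 8267647), has 4 annotated transcripts, among which the FPKM were divided differently in the groups. How far this reflects the assignment of reads among overlapping transcripts was not tested. The transcript that led in control leaf had 11.1 FPKM in air-dried 2 and under 0.001 FPKM in air-dried 1 and 3, against 32.2, 37.0 and 39.3 FPKM in the controls. Another, with a span of 1500 bp, had 67.2, 46.5 and 55.0 FPKM after drying, against 1.71 FPKM in control 1 and under 0.1 FPKM in the other controls. Rank 103, the most abundant member after drying, gained in an assembled transcript over its whole length, with 499, 350 and 360 FPKM after drying and 118, 103 and 129 FPKM in control leaf. Its annotated transcript had 129, 161 and 146 FPKM after drying, against 218, 178 and 170 FPKM in control leaf, so the groups did not overlap and it was lower after drying.

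**Figure D4:**
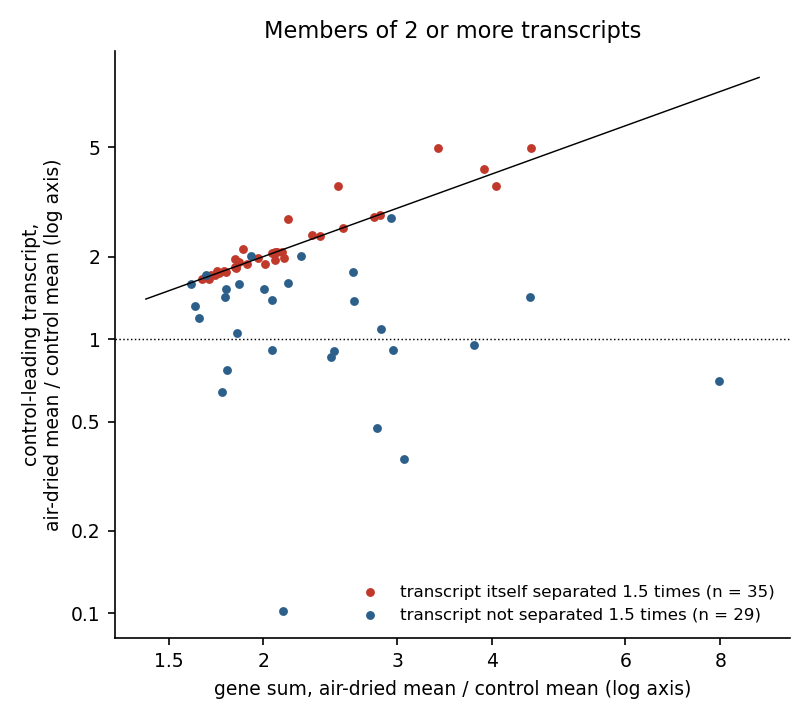
The 64 members of 2 or more transcripts: ratio of air-dried mean to control mean of the gene sum (horizontal, log axis) against the same ratio of the transcript that led in the controls (vertical, log axis); the solid line marks equal ratios and the dotted line a ratio of 1. The 35 members whose leading transcript was itself separated lie near the solid line, and the other 29 lie mostly below it, 11 of them under the dotted line.

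The share of the gene sum carried by the main transcript, the one with the highest mean over all 6 libraries, was compared between the groups with limma over all 15752 genes of 2 or more transcripts that could be tested. It changed in 36 genes, which is 0.229%, and in 5 of the 64 members (7.81%). As above, selection for a higher sum favours genes in which a further transcript appears. The genes tested also reach down to 1 FPKM, while members have a control mean of at least 20 FPKM. The shares are therefore not a like comparison, and nothing is read from their difference. The share was higher after drying in ranks 2, 65, 8 and 29, at 90.9%, 71.6%, 68.6% and 62.3%, against at most 1.69% in control leaf. It was lower in rank 106, at 36.8% after drying and 100% in control leaf. Adjusted p-values by limma ran from 0.0021 (rank 2) to 0.041 (rank 106). No gene passed with a replicate block, without both replicate 1 libraries or without air-dried 3, although 19, 25 and 17 members then had an unadjusted limma p under 0.05, as did 8.33%, 14.1% and 7.07% of all genes tested.

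The 77 members whose leading transcript was itself separated and the 29 others had similar folds, with median ratios of means of 2.11 and 2.12. They differed in spread after drying, with a median coefficient of variation of 5.34% in the 77 and 12.4% in the 29. The split uses the lowest air-dried and highest control value of the leading transcript, so the spread is not independent of it. The 77 also include the 42 members of 1 transcript, for which the split repeats the rule. Of the 5 members in which air-dried 1 stood out, 4 were among the 29. On annotated transcripts alone, 74 of the 106 members met the whole rule and 80 the ratio of 1.5, while in 6 the air-dried mean was lower than the control mean.

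Members were compact gene models. Their genomic span had a median of 2062 bp (quartiles 1430 and 3163 bp), compared with 3476 bp (2303 and 5033 bp) in the other eligible genes. A single transcript was present in 39.6% of the members and in 15.9% of the rest, and assembled transcripts in 57.5% and 81.6%. Of the eligible genes that span 1000 to 2000 bp, 40 of 931 were members (4.30%), of those from 3000 to 5000 bp 23 of 2085 (1.10%), and of those from 5000 to 10000 bp 5 of 1312 (0.381%). None of the 216 genes of 10000 bp or more was a member. Number of transcripts and span go together, and within genes of 1 transcript the share was 5.82% at 1000 to 2000 bp, 2.76% at 2000 to 3000 bp and 4.08% at 3000 to 5000 bp. Within genes of 2 or more transcripts it was 3.25%, 1.92% and 0.877% over the same spans. Under 1000 bp the share was 3.72% in genes of 1 transcript and 6.56% in those of 2 or more. At 5000 bp or more it was 0% and 0.332%.

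The opposite pattern, a lowest control value at least 1.5 times the highest air-dried value, was met by 75 eligible genes (1.23%). It too was more frequent in short genes, with 6.02% of those under 1000 bp and 0.305% of those from 5000 to 10000 bp, and in genes of 1 transcript (3.13%). Compactness was therefore not a feature of the raised genes alone. At 1000 to 2000 bp the raised genes exceeded the lowered ones by 40 to 19, while at 500 to 1000 bp the lowered ones exceeded the raised ones by 15 to 11.

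**Figure D5:**
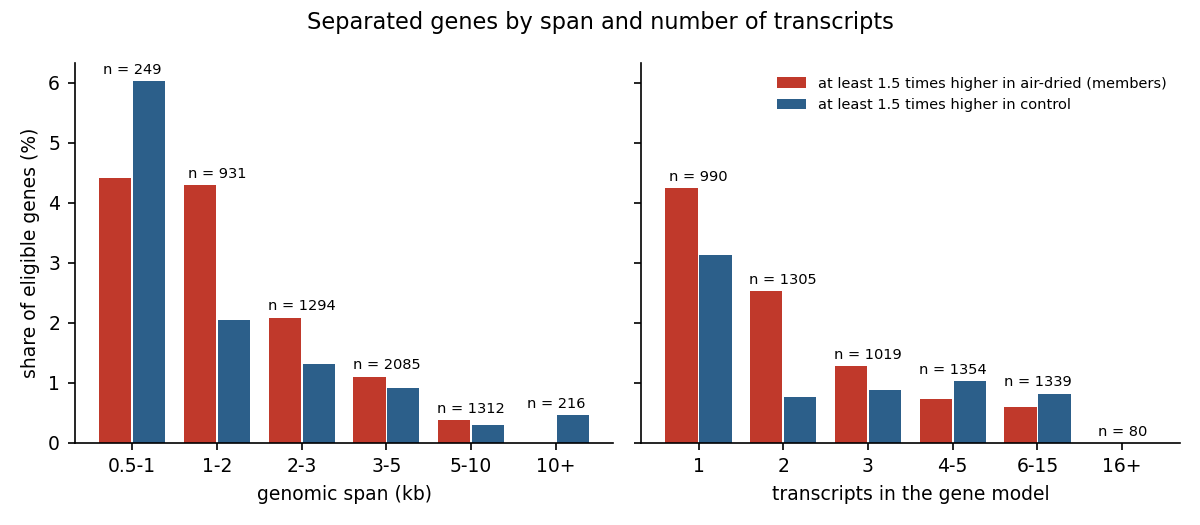
Share of the 6087 eligible genes that were at least 1.5 times higher in every air-dried library than in any control (red, the members) or the reverse (blue), by genomic span in kb (left) and by the number of transcripts in the gene model (right); n is the number of eligible genes in each bin. Both shares are low in the longest genes and in genes with many transcripts, and the members reach 4.42% under 1 kb and 4.24% in genes of 1 transcript.

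The share of raised genes differed by the level in control leaf. Among annotated genes of 500 bp or more, the ratio of 1.5 was reached by 62 of 3676 genes with a control mean of 20 to 50 FPKM (1.69%), by 31 of 1268 at 50 to 100 FPKM (2.44%), by 11 of 618 at 100 to 200 FPKM (1.78%), by 2 of 360 at 200 to 500 FPKM (0.556%) and by 0 of 165 at 500 FPKM or more. Below the eligible range the shares were 1.69% at 10 to 20 FPKM, 2.74% at 5 to 10 FPKM and 4.96% at 1 to 5 FPKM. The opposite ratio was met by 0.762% of the genes at 20 to 50 FPKM, 2.78% at 200 to 500 FPKM and 4.24% at 500 FPKM or more. Raised genes thus outnumbered lowered ones up to 200 FPKM, and lowered ones outnumbered raised ones above it. The median ratio of means of the raised genes was 3.03 at 1 to 5 FPKM, 2.22 at 20 to 50 FPKM, 2.05 at 50 to 100 FPKM and 1.90 at 100 to 200 FPKM.

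Members lay on all 19 chromosomes and 1 on an unplaced scaffold. Chromosome 2 held the most, 15 of its 462 eligible genes (3.25%), and chromosomes 13 and 15 held 1 each, of 222 and 214. No test of these shares was made. Within 100 kb of each other lay 2 pairs, ranks 84 and 106 on chromosome 4 with 49972 bp between them and ranks 33 and 94 on chromosome 17 with 64421 bp between them. Among the 210 tested genes that directly flank members and are not members, 15 rose (7.14%) and 5 fell (2.38%) by limma at an adjusted p under 0.05, beside 5.39% and 2.62% of all tested genes. Another tested gene model overlapped 9 members (8.49%), compared with 7.82% of the other eligible genes, and 0 of these 9 partners rose by limma. One partner fell, a model on the strand opposite to rank 80 with means of 915 FPKM after drying and 1351 FPKM in control leaf. That model covers the whole 2049 bp of rank 80. The whole 1258 bp of rank 18 are covered by an opposite-strand model with means of 77.4 FPKM after drying and 54.2 FPKM in control leaf. With no strand-specific kit named, reads of these overlaps could belong to either model. Rank 88 overlaps over its whole 876 bp a model on the same strand with means of 1764 FPKM after drying and 2794 FPKM in control leaf, so its own value is uncertain.

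The genes outside the members whose profile over the 6 libraries was most like the mean profile of the members, by Pearson correlation of log2(FPKM + 1), had lower levels. These are descriptions over 6 libraries that fall into 2 groups, and the measure ignores the size of a change. The closest, at r = 0.9998, lies on chromosome 9 (minus strand, 9947378 to 9953015) and had 49.2, 44.6 and 45.7 FPKM after drying, against 5.02, 5.26 and 4.95 FPKM in control leaf. The next 2, both at r = 0.9997, were on chromosome 2 (plus strand, 93065 to 94085), with 23.4, 21.5 and 21.4 FPKM after drying and 0.085 FPKM or less in the controls, and on chromosome 17 (plus strand, 4581037 to 4588370), with 16.4, 15.5 and 14.4 FPKM after drying and listed at 0 in the controls. The gene model on chromosome 17 lacks an annotated transcript, so it could not have been a member at any level.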

How the data were processed

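Per the labels' protocols, poly(A) RNA went into TruSeq libraries that were read from both ends for 100 bp. FastQC, TopHat and Cufflinks are listed in the submitters' processing notes. For the versions and the genome build, nothing is given in the sources used here. The deposited values are FPKM per transcript, calculated by the authors, per the file headers, for 112919 transcripts (45773 annotated). The tables give no read counts, so the depth behind a value is unknown.

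FPKM were summed by gene. Genes averaging 1 FPKM or more were tested with limma 3.58.1 (R 4.3.3, mean-variance trend) on log2(FPKM + 1), a scale that understates changes of low genes. The main-transcript share was tested likewise, as a fraction, in genes of at least 1 FPKM in every library. The fit on gene sums was tried on simulated data with planted changes, the outcome of which is not reported here. That simulation did not cover the share fit. No 2 libraries held identical values (0 pairs).

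Named genes are the 10 members with the highest air-dried mean, the 10 with the largest and the 5 with the smallest ratio of lowest air-dried to highest control value, the 5 genes just outside, and the 3 most alike. Members described for their transcripts, overlaps or single libraries beyond these were chosen after their values were seen. Members and lists were chosen with earlier results of these data known. Alternatives were other pseudocounts, filters, scalings, thresholds and transcripts, a replicate block, and libraries left out.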

Additional observations from a re-analysis of the deposited data

How the results depend on the processing

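The number of members was 177 with a control mean of at least 10 FPKM, 44 with at least 50 FPKM, 283 at the looser ratio tried, 33 at a ratio of 2, and 167 without both replicate 1 libraries, of which 103 were among the 106. Leaving out 1 library gave 114 to 140, with 103 to 106 of the 106 kept. Dropping libraries cannot lower a member's ratio of lowest air-dried to highest control value. A member could leave only through its control mean, so the numbers kept are no check on the members. On the control-leading transcript alone, an alternative chosen after seeing the data, 89 genes met the rule, 75 of them members. The limma fit called 105 members, and 72 to 106 under the alternatives run.

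The 1829 genes called over the whole table became 661 with a replicate block (which called 84 members), 2767 without both replicate 1 libraries and 1210 on annotated transcripts only. Leaving out 1 library gave 474 to 1995 genes. Dropping air-dried 1 gave 1217, dropping air-dried 2 gave 476, dropping air-dried 3 gave 474, dropping control 2 gave 724 and dropping control 3 gave 639. The members' median log2 change of 1.06 was 0.99 with a pseudocount of 5, 1.03 with median-of-ratios scaling, 1.11 with quantile normalization and 0.97 on annotated transcripts; without 1 library it was 1.04 to 1.08. Changed main-transcript shares numbered 74 genes and 9 members on a log2 ratio, and 0 and 0 by limma with a replicate block or without both replicate 1 libraries (unadjusted p under 0.05 in 1312 and 2221 genes). They numbered 0 to 58 genes and 0 to 4 members when 1 library was dropped. Dropping air-dried 3 gave 0 genes (unadjusted p under 0.05 in 1114), air-dried 2 gave 14 genes and 1 member, air-dried 1 gave 44 and 3, control 1 gave 58 and 4, control 2 gave 17 and 1, and control 3 gave 24 and 2. Among 495 values of the named genes under alternatives, 439 kept direction and call, 53 kept direction and lost the call, and 3 reversed, each on annotated transcripts only: rank 29 (log2 change -0.22), rank 103 (-0.37) and the gene on chromosome 19 just outside the threshold (-0.091). The cause of these changes was not tested beyond the fewer samples or transcripts used. Deviations of same-numbered libraries correlated at r = 0.02, 0.04 and 0.01, below the 0.1 asked of a pairing. Control 3 correlated best with air-dried 2, while the other libraries correlated best with their own number. Because the correlations were this low, the numbers were not taken to pair samples. The replicate block above gives the counts with pairing. Unknown depth leaves values listed at 0 without a limit.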
